A study of Mus musculus with 143 samples.

Results

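The nuclear-stained (SYTO83 only) segments of the fimbria and of the cortex were compared in aged mouse brain. They were chosen by their region and mask labels, and 23 of the 143 segments of the series qualified, 18 from fimbria and 5 from cortex. At least 1000 counts and a sequencing saturation of at least 50% were required, which 16 fimbria and 5 cortex segments met. Segments of the same mouse and region were then summed, giving 5 fimbria sums (mice N101, N108, N110, N111 and N112) and 3 cortex sums (N101, N108 and N111). Both regions were therefore available in 3 mice, and the mouse is the replicate except where sums were split by plate or segments were used. One of the 2 fimbria segments of N112, with 13264 of its 28904 counts, belongs to an area numbered 42, and an IBA1 segment numbered 42 is labelled N111. Whether these are the same area is not given in the sources used here.

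All groups came from female C57BL/6 mice aged 28 months, with no genotype or treatment named in the labels. Sagittal hemispheres had been fixed in 4% paraformaldehyde for 24 hours, embedded in paraffin and cut at 5 µm. Sections were hybridised with the GeoMx mouse Whole Transcriptome Atlas, in which each probe carries a tag that light releases from a chosen, masked area for sequencing. SYTO83 is a dye that binds nucleic acid and marks nuclei, whereas IBA1 and Galectin-3, the other masks of the series, are proteins detected by antibodies. Whether the SYTO83 mask left out area positive for either protein, and how the areas were placed, is not given in the sources used here.

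The fimbria is a white matter tract that carries axons out of and into the hippocampus. Its nuclei belong mainly to myelin-forming oligodendrocytes, with astrocytes, microglia and vascular cells between the axons. The cortex is grey matter, where nuclei of excitatory and inhibitory neurons lie among the same glial types. Myelin genes are textbook markers of the former tissue and synaptic genes of the latter, so the comparison asks how far the nuclear-stained area of the regions differs in RNA. The deposited counts name probes by code only, and 0 of the 20175 codes were found in the gene tables used here. The tissue labels could therefore not be checked against oligodendrocyte or neuronal markers, and each result below concerns a probe whose gene is not named.

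The fimbria sums held 120329 counts in N101, 95498 in N108, 110375 in N110, 93981 in N111 and 28904 in N112. The cortex sums held 88489 counts in N101, 35835 in N108 and 65923 in N111. This depth amounts to 1.43 to 5.96 counts per probe in a sum. Passing segments held 10938 to 57773 counts in the fimbria and 22623 to 53699 in the cortex, and the lowest saturation among them was 91.0%. The 2 fimbria segments left out held 93 counts (N111) and 15 counts (N110). All cortex segments lay on the library plate lettered A in the labels, as did all fimbria segments of N101 and N108. Plate A contributed 30.2% of the fimbria counts of N110, 24.1% of those of N111 and none of those of N112, so region and plate overlap in part and values within plate A are given beside the results.

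No probe passed the test between fimbria and cortex. In the edgeR fit with the mouse as a block, 0 of 470 tested probes were called higher and 0 lower in the fimbria at an adjusted p under 0.05, so 0% were called. The smallest edgeR adjusted p was 0.212. An unadjusted p under 0.05 was reached by 20 of the 470 probes, a share of 4.26%, and DESeq2 called 0 probes with 8 at an unadjusted p under 0.05. Without the fimbria segment of N112 numbered 42, edgeR called 0 of 489 probes, with 17 at an unadjusted p under 0.05. The tested probes were 2.33% of all 20175, since the other 19705 held too few counts for the filter. They took 4.91% to 11.4% of the counts of a sum, and lower count minimums, which tested more probes, also called 0.

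Because no probe met the rule for named probes, the 2 probes of lowest p in each direction are described by code. They were chosen after their values were seen, from the same contrast, so their values describe the extremes of the comparison. Levels are counts per 10000 counts of a sum, a scale on which an even share over all probes would give 0.496. Folds are on edgeR's log2 scale after TMM scaling, fimbria minus cortex.

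RTS0064052 had the lowest p of all probes and was lower in the fimbria. In the cortex it took 6.22 of every 10000 counts in N101, 6.98 in N108 and 5.01 in N111. In the fimbria it took 3.07 in N101, 3.25 in N108, 3.35 in N110, 2.55 in N111 and 3.11 in N112. The groups did not overlap, with a mean of 3.07 ± 0.308 (SD, n = 5 mice) in the fimbria against 6.07 ± 0.994 (SD, n = 3 mice) in the cortex. These levels rest on 138 of 449087 fimbria counts and 113 of 190247 cortex counts. The log2 fold was -1.10 (SE 0.32), with an unadjusted edgeR p = 5.93e-04 that did not hold after adjustment over all tested probes (edgeR adjusted p = 0.212). Among the 470 tested probes, 6 (1.28%) had all fimbria sums below all cortex sums and 12 (2.55%) had all of them above.

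**Figure D1:**
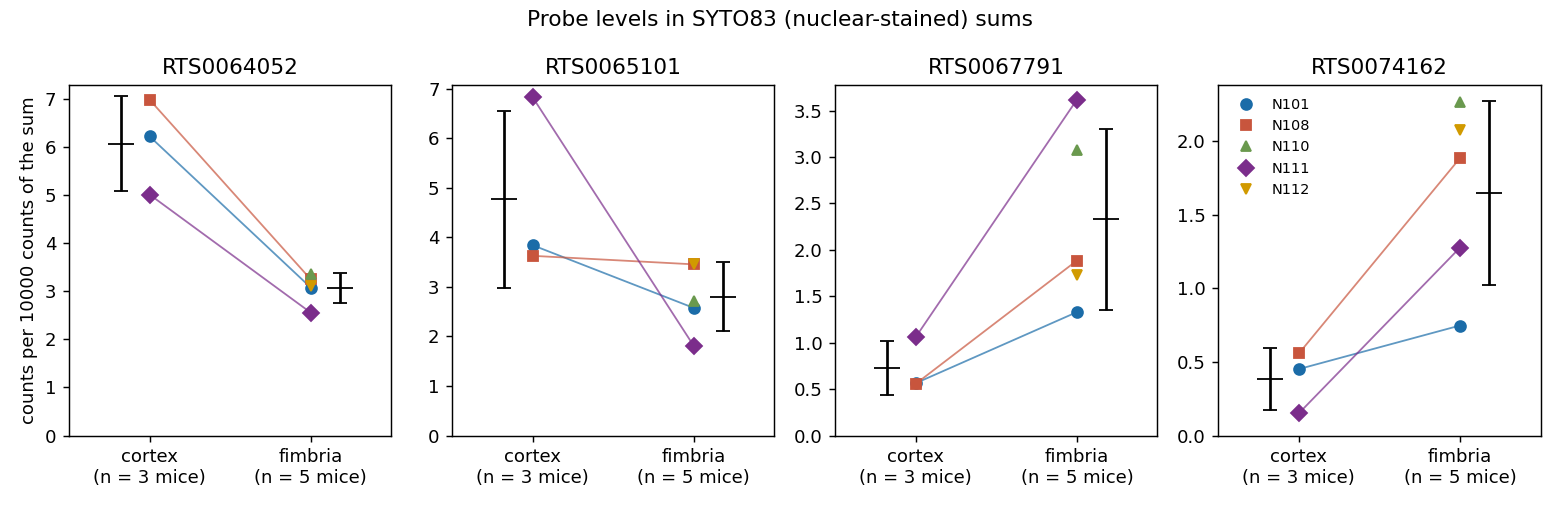
Counts per 10000 counts of the sum (y axis) for the 4 probes of lowest p in each cortex and fimbria SYTO83 sum (x axis), with lines joining sums of the same mouse and black bars giving the mean ± SD over mice. RTS0064052 runs from 5.01 to 6.98 in the cortex and from 2.55 to 3.35 in the fimbria, while RTS0065101 is set apart mainly by N111.

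Counting error alone leaves the sums of RTS0064052 less far apart than their order does. The exact Clopper-Pearson 95% interval of the lowest cortex sum (N111, 33 counts) ran from 3.45 to 7.03 per 10000, and that of the highest fimbria sum (N110, 37 counts) from 2.36 to 4.62. These intervals overlap, and they cover counting error only. The interval of the fimbria sum of N112 (9 counts) ran from 1.42 to 5.91. The small SD among fimbria sums is thus finer than their counts resolve.

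Single segments of the 2 regions did overlap for RTS0064052. The cortex segments ran from 4.42 to 6.98 per 10000 with a median of 5.96, and the fimbria segments from 0 to 5.59 with a median of 2.89. The highest fimbria segments were one of N110 at 5.59 and one of N101 at 5.55, above the 2 lowest cortex segments. The segment at 0 (N110) held 14971 counts, which allows up to 2.0 per 10000. Pooled over segments, the fimbria level was 2.94 on plate A and 3.27 on plate B, against 5.94 in the cortex, all of it on plate A. With plate A segments alone the log2 fold of RTS0064052 was -1.14 (edgeR adjusted p = 0.401).

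**Figure D2:**
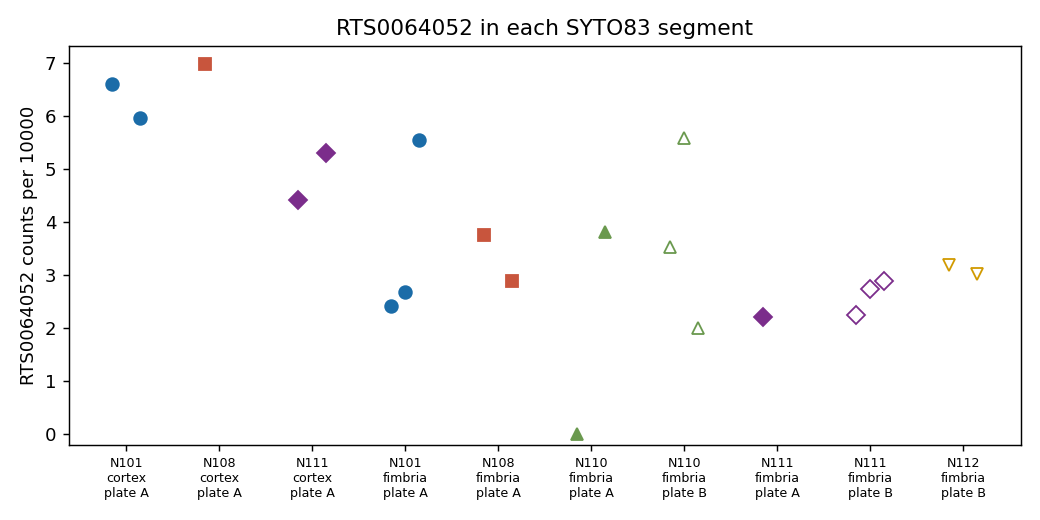
RTS0064052 counts per 10000 (y axis) in each passing SYTO83 segment, by mouse, region and library plate (x axis), with filled markers for plate A and open markers for plate B. The 5 cortex segments lie between 4.42 and 6.98 and the 16 fimbria segments between 0 and 5.59.

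The call on RTS0064052 changed with the treatment of mouse and plate. It passed without the mouse block, where its log2 fold was -1.18 (SE 0.30, edgeR adjusted p = 0.0450). It passed with plate as a term beside the mouse, where sums were split by plate and the log2 fold was -1.33 (SE 0.27, edgeR adjusted p = 7.37e-04). That fit held 15 sums, with the fimbria of N110 and of N111 entered once per plate. Those sums of a mouse are not independent replicates, so this SE and p can be too small. There it was the only region call among 519 probes (0.193%). Leaving a mouse out of that fit ended the call without N108 (-1.22, SE 0.31, edgeR adjusted p = 0.0765) and without N111 (-1.18, SE 0.33, edgeR adjusted p = 0.192). DESeq2 with the same terms gave -1.30 (SE 0.35, adjusted p = 0.0842) and called 0 probes.

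RTS0064052 was picked on its fimbria and cortex SYTO83 sums, so a high rank of the cortex group is partly built in. Its cortex SYTO83 level was the highest of the 10 groups of sums in the series that hold at least 2 mice. The next was hippocampal area positive for both IBA1 and Galectin-3, at 4.43 ± 1.0 per 10000 (SD, n = 3 mice), and neighbouring values of that group and the cortex overlapped, since its highest sum reached 5.14. The other 8 groups had means of 1.89 to 3.07. Hippocampal SYTO83 sums averaged 2.94 ± 1.22 (SD, n = 5 mice), close to the fimbria mean in size, with as few as 3 counts in a sum (N108). Under the IBA1 mask the level was 2.23 ± 0.981 in the cortex (SD, n = 4 mice) and 1.89 ± 0.746 in the fimbria (SD, n = 5 mice).

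RTS0065101 was the other probe with a lower fimbria level, and a single mouse set most of its fold. Its cortex level was 3.84 per 10000 in N101, 3.63 in N108 and 6.83 in N111. Its fimbria level was 2.58 in N101, 3.46 in N108, 2.72 in N110, 1.81 in N111 and 3.46 in N112. The groups did not overlap, but the lowest cortex and the highest fimbria sums were nearly equal. The log2 fold was -0.97 (SE 0.32, edgeR adjusted p = 0.372), and without N111 it was -0.31 (SE 0.37). With plate A segments alone it was -0.67 (SE 0.34, edgeR adjusted p = 0.985), and with the plate term -0.75 (SE 0.28).

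RTS0067791 was higher in the fimbria, with a low cortex level. In the cortex it took 0.565 per 10000 in N101, 0.558 in N108 and 1.06 in N111, which rest on 14 counts in all. In the fimbria it took 1.33 in N101, 1.88 in N108, 3.08 in N110, 3.62 in N111 and 1.73 in N112, from 107 counts. No fimbria sum was as low as the highest cortex sum, and the log2 fold was 1.5 (SE 0.45, edgeR adjusted p = 0.212). The fimbria level of this probe differed between plates, at 1.58 per 10000 pooled on plate A and 3.61 on plate B. With plate A segments alone the log2 fold was 0.81 (SE 0.59, edgeR adjusted p = 0.985), and with the plate term 1.08 (SE 0.46).

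RTS0074162 had the largest log2 fold of the tested probes, 1.82 (SE 0.63, edgeR adjusted p = 0.463), on few counts. Its cortex level was 0.452 per 10000 in N101, 0.558 in N108 and 0.152 in N111, from 7 counts together and a single count in N111. Its fimbria level was 0.748 in N101, 1.88 in N108, 2.27 in N110, 1.28 in N111 and 2.08 in N112, from 70 counts. The groups did not overlap, with N101 the nearest pair, and the log2 fold without that mouse was 2.43. On plate A alone it was 1.17 (SE 0.75).

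The size of difference in counts that the data allow was read from the 95% intervals of the folds. Background signal was neither estimated nor subtracted, so the folds compare counts that may include it. Over the 470 probes the log2 folds had a median of -0.01 and an SD of 0.44, against a root mean square standard error of 0.45. The estimates ran from -1.26 to 1.82, and 458 of 470 lay within a 2-fold change. The whole interval lay within 2-fold for 139 probes and within 4-fold for 455. A change of 4-fold was therefore outside the interval of most tested probes, whereas for most of them a 2-fold change was not.

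The 20 most abundant tested probes were measured more precisely. For 19 of them the interval lay within 2-fold, RTS0064052 being the exception at abundance rank 17. Even the highest probe of a sum held only 0.271% to 0.320% of cortex counts and 0.218% to 0.716% of fimbria counts. With background not subtracted, these intervals bound differences in counts, and how far RNA levels differ was not tested. The log2 folds of the other 19 ran from -0.29 to 0.30 with standard errors of 0.29 to 0.34, and their interval bounds from -0.90 to 0.95. None of the 19 reached an unadjusted p under 0.05 in edgeR, the lowest being 0.348. These intervals come from the fit with the mouse as a block and assume the spread estimated over all 13 SYTO83 sums, hippocampus included. That spread was shared over probes, so the intervals and the edgeR p-values carry no uncertainty in the spread of a single probe.

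**Figure D3:**
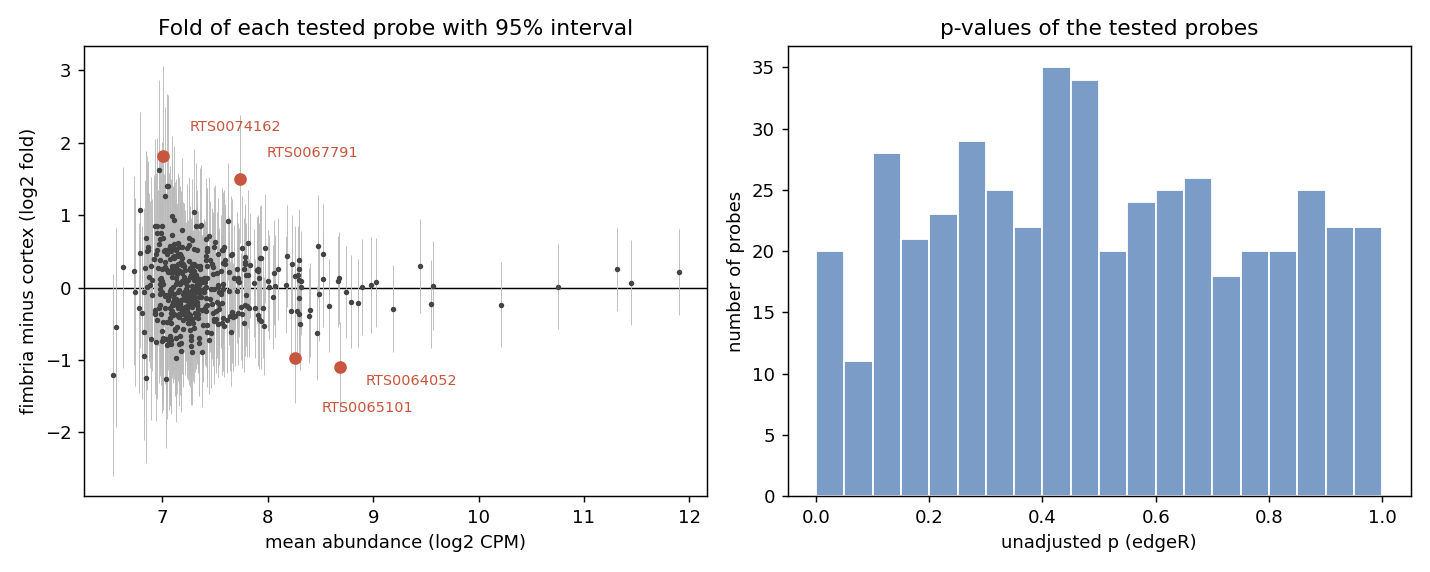
Left, the log2 fold of each of the 470 tested probes, fimbria minus cortex (y axis), with its 95% interval, against mean abundance in log2 CPM (x axis), with the 4 probes of lowest p in red. Right, the number of probes (y axis) per bin of unadjusted edgeR p (x axis); the lowest bin holds 20 probes.

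Whole profiles of the regions were set against the differences between mice. For each pair of sums the squared difference in probe shares beyond counting error was divided by the product of the shares, and its square root is given as a percent. This measure weights abundant probes, was chosen after the data were seen and is a description with no test. On plate A, fimbria and cortex of the same mouse differed by 14.4% in N101, 31.7% in N108 and 14.3% in N111. Fimbria and cortex of different mice differed by 12.4% to 30.4% (median 28.3%, 9 pairs). Sums of the same region from different mice differed by 14.5% to 29.5% within the cortex (median 23.4%, 3 pairs) and by 14.5% to 39.3% within the fimbria (median 30.5%, 6 pairs). In N101 and N111 the 2 regions were thus about as close as the closest pairs of the same region from different mice. The plate A fimbria of N111 is 1 segment. In N108 the value lay above the cortex pairs and inside the range of the fimbria pairs.

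Fimbria sums of the same mouse on different plates were further apart than any of these plate A pairs, by 47.1% in N110 and 59.2% in N111. Without the 20 most abundant probes these plate differences were 20.7% and 23.8%, and those between regions of the same mouse were 11.4% in N101, 26.2% in N108 and 15.5% in N111. Plate A sums of the same region from different mice then differed by 13.5% to 23.8% within the cortex and by 13.4% to 26.1% within the fimbria. N101 thus lay below these ranges, N111 inside them and N108 just above them.

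**Figure D4:**
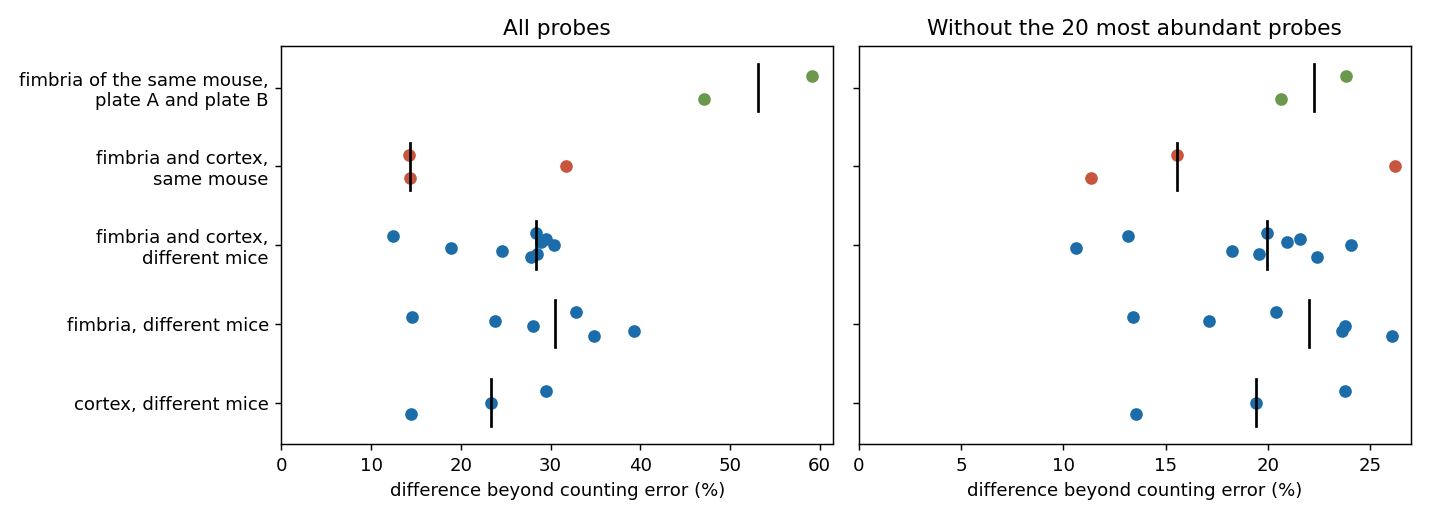
Difference in probe shares beyond counting error (x axis, percent) for pairs of SYTO83 sums of the kinds named on the y axis, over all probes (left) and without the 20 most abundant (right), with a black line at each median. All pairs are of plate A sums except the uppermost row, where fimbria sums of N110 and N111 are compared between plates, at 47.1% and 59.2% over all probes.

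The plate difference also passed the test for single probes. In the fit with sums split by plate, 11 of 519 probes were higher on plate B than on plate A, by 0.98 to 1.89 log2 units, and 2 were lower, by -1.64 and -1.59 (2.5% called in edgeR). Of these 13 probes, 7 were among the 20 most abundant. The contrast rests on 2 mice with segments on both plates. DESeq2 with the same terms called 5 plate probes. With a mouse left out, the edgeR count ran from 2 of 678 probes (without N111) to 15 of 944 (without N108). Of the region probes, RTS0067791 had a plate B minus plate A log2 fold of 1.06 (SE 0.45, edgeR adjusted p = 0.262) and RTS0064052 of 0.97 (SE 0.37, edgeR adjusted p = 0.198). RTS0065101 had a plate fold of -0.98 (SE 0.38, edgeR adjusted p = 0.198) and RTS0074162 of 0.08 (SE 0.59, edgeR adjusted p = 0.988).

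The share of counts in the 100 most abundant probes asks whether counts were more concentrated in 1 region. The cortex sums held 3.29% (N101), 3.25% (N108) and 4.02% (N111) in these probes, where an even spread would give 0.496%. The fimbria sums held 2.74% (N101), 4.19% (N108), 5.21% (N110), 4.98% (N111) and 5.65% (N112), so the regions overlapped. Within mice the fimbria exceeded the cortex by 0.45 ± 0.867 percentage points (SD, n = 3 mice, higher in 2 of 3), with an exact sign-flip permutation p = 0.5 (two-sided, 1 after adjustment over 3 such tests). With 3 mice this test cannot go below 0.25. Within plate A the mean difference was 0.0036 points. The fimbria of N110 held 4.13% on plate A and 5.68% on plate B, and that of N111 held 3.64% and 5.40%.

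**Figure D5:**
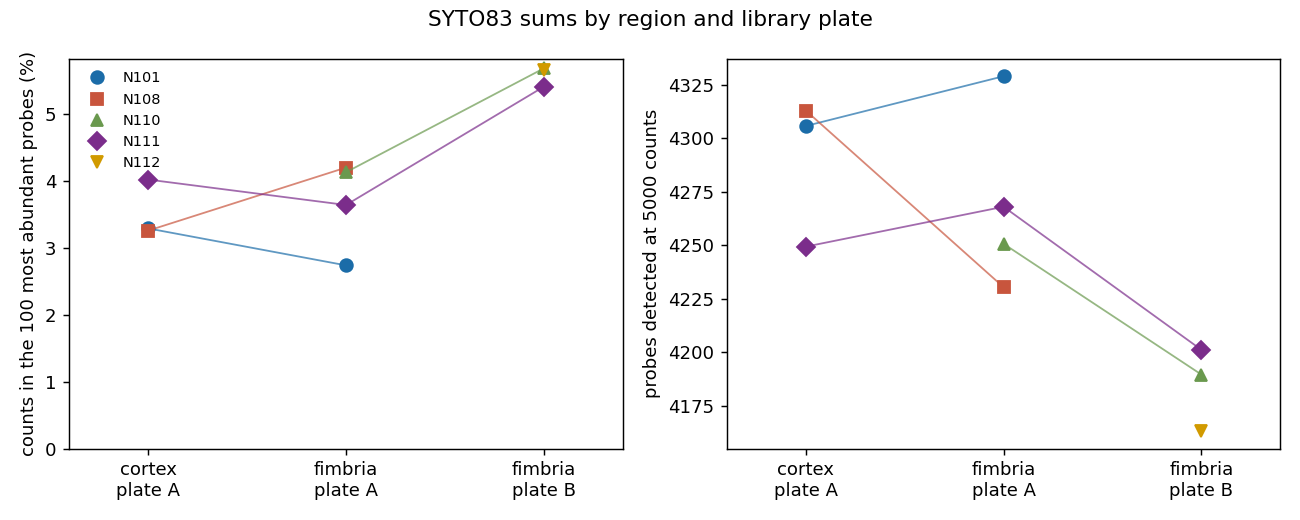
Left, percent of counts in the 100 most abundant probes, and right, probes detected when each sum is thinned to 5000 counts (y axes; the right axis does not start at 0), for SYTO83 sums by region and library plate (x axis), with lines joining the sums of a mouse. The fimbria sums of N110 and N111 rise from 4.13% and 3.64% on plate A to 5.68% and 5.40% on plate B, and cortex and fimbria overlap on plate A.

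The number of probes detected was compared in the same way, by an exact sign-flip test that 3 mice cannot take below p = 0.25. At a common depth of 28904 counts, 14551 ± 188 probes (SD, n = 3 mice) had a count in the cortex and 14291 ± 282 (SD, n = 5 mice) in the fimbria. The difference within mice was -143 ± 311 probes (SD, n = 3 mice, exact sign-flip permutation p = 0.75, 1 after adjustment over 3 tests) and changed sign without N108, to 30.5. The share of reads aligned to probe tags, a technical measure, differed between regions by -2.08 ± 35.1 points (SD, n = 3 mice, exact sign-flip permutation p = 1). It was 91.8% in the fimbria and 53.3% in the cortex of N101, 56.0% and 77.7% in N108, and 41.7% and 64.7% in N111. In summed areas of this kind, fewer cells of a type and less RNA per cell cannot be told apart.

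Hippocampal SYTO83 sums of the same mice give the nearest grey matter for comparison. Fimbria and hippocampus differed in 1 of the 470 probes (0.213%, lower in the fimbria), and hippocampus and cortex in 2 (0.426%, 1 in each direction), by edgeR. RTS0076921 was both the probe lower in the fimbria and the probe higher in the hippocampus than in the cortex. Its log2 folds were -2.32 (SE 0.36, edgeR adjusted p = 5.88e-08) and 2.11 (SE 0.43, edgeR adjusted p = 5.41e-04), and its levels by segment are not given here. The contrasts share sums, so their counts are set side by side only. The probe lower in the hippocampus than in the cortex was RTS0065101, with a log2 fold of -1.41 (SE 0.38, edgeR adjusted p = 0.0409) and a hippocampal level of 1.56 ± 0.614 per 10000 (SD, n = 5 mice). The hippocampal sums of N110, N111 and N112 lay wholly on plate B, and with the plate term that fold was -0.96 (SE 0.37, edgeR adjusted p = 0.552) and no longer a call. RTS0064052 had a log2 fold of -0.46 (SE 0.30, edgeR adjusted p = 0.854) between fimbria and hippocampus and of -0.64 (SE 0.35, edgeR adjusted p = 0.825) between hippocampus and cortex.

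The regional folds of the nuclear-stained area were set against those of the IBA1-masked area, which marks microglia, in a fit of 27 sums and 866 probes. The IBA1 cortex sums include N110, which has no SYTO83 cortex sum. Fimbria minus cortex called 0 probes under either mask in edgeR (0% for both), with 37 probes at an unadjusted p under 0.05 under SYTO83 and 38 under IBA1. The difference between the regional folds of the masks passed the test for 0 of 866 probes (0%), with 29 at an unadjusted p under 0.05, a smallest edgeR adjusted p of 0.990 and 0 calls by DESeq2. Its root mean square standard error was 0.67 log2 units, so the 0 calls do not show that the masks were alike.

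In that fit RTS0064052 had a regional log2 fold of -0.90 (SE 0.33) under SYTO83 and -0.18 (SE 0.36) under IBA1, and the difference was -0.72 (SE 0.49, edgeR adjusted p = 0.990). RTS0067791 had 1.69 (SE 0.43, edgeR adjusted p = 0.0850) under SYTO83 and 0.48 (SE 0.46) under IBA1. RTS0074162 had 1.97 (SE 0.57) under SYTO83 and 0.11 (SE 0.53) under IBA1, the widest gap of the 4 probes, at 1.86 (SE 0.82, edgeR adjusted p = 0.990). RTS0065101 had -0.78 (SE 0.32) under SYTO83 and -0.59 (SE 0.36) under IBA1. The 4 probes were picked on SYTO83 values that these differences reuse, so smaller folds under IBA1 are partly built in.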

How the data were processed

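The authors made the deposited counts, deduplicated reads of each probe in a segment, with the GeoMx NGS Pipeline 2.3.3.10 per the file headers; GRCm39 is the build in the submitters' processing notes. Aligned share and saturation were computed from the read totals of the headers. Segments with at least 1000 counts and 50% saturation were summed per mouse, region and mask, and sums of at least 5000 counts were kept. The labels give no probe names, so the cell type and gene lists could not be run and no sequence is shown.

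Quasi-likelihood tests were run in edgeR 4.0.16 under R 4.3.3 on 13 SYTO83 sums of fimbria, cortex and hippocampus, with library totals over all probes, TMM scaling (factors 0.655 to 1.34), a filterByExpr minimum of 10 counts, and a block for the mouse, since regions came from the same mice. The common dispersion was 0.0397, with 6 residual degrees of freedom. The prior degrees of freedom were infinite, so p-values and intervals rest on the spread shared over probes and not on 6 degrees of freedom. A Benjamini-Hochberg adjusted p under 0.05 was a call. The naming rule took called probes with the largest folds, above median abundance and agreeing in sign over all mice that had both regions. For single values, sign-flip permutation tests over 3 mice were exact and two-sided. A count of 0 was taken to allow 3 counts.

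Alternatives included DESeq2 1.42.0, limma 3.58.1 on segments, other scalings, filters and minimums, aligned share, plate and each mouse left out. The minimum count of 5, sums of at least 25000 counts, the plate term, the segment of N112 left out and probes ranked in hippocampus were added after seeing the data. The members and lists were chosen with earlier results of these data known. The main edgeR fit was also run on simulated counts without mouse or plate differences, so that run cannot speak for the block or the plate term. Figures were drawn with Python 3.11.15 and matplotlib 3.10.9.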

Additional observations from a re-analysis of the deposited data

Results flagged for a closer look

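The fimbria SYTO83 sum of N112 held 28904 counts, far below the other 4 fimbria sums, which held 93981 to 120329. Its gap to the nearest sum was 0.712 of the whole range of the 5 sums. It was the only one of 20 groups of values with a sample set apart in this way, and the threshold used, Dixon's 95% critical value, is one that chance passes in about 1 of 20 groups. Without N112, 1051 probes were tested, 0 were called by edgeR and 38 had an unadjusted p under 0.05.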

How the results depend on the processing

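The count of 0 calls held under 26 of 29 alternatives, which tested between 43 and 20175 probes, and moved to 1 call, RTS0064052, under 3. These were the fit with no replicate block (1 call), segments as observations with limma voom (1 call among 43 probes, log2 fold -1.23, SE 0.29, limma adjusted p = 0.00112) and the plate term (1 call). Segments of a mouse share their source, which that fit treats only through an estimated correlation within mice. The stricter and the looser minimums kept the same 13 sums and 470 probes with unchanged values, so those settings could not move the count. The log2 fold of RTS0064052 ran from -1.33 to -0.79 over the alternatives, the smallest without the cortex segment of N108, and its edgeR, DESeq2 or limma adjusted p from 7.37e-04 to 1. The other 3 probes were not tested under every alternative. RTS0065101 ran from -1.22 to -0.31 over 28, RTS0067791 from 0.81 to 1.69 over 27 and RTS0074162 from 1.17 to 2.43 over 25. There was no change of direction and no call where they were tested. No probe was called with a minimum count of 5, which tested 8024 probes (221 at an unadjusted p under 0.05), or with no count filter (607 of 20175). The test of the masks' regional folds gave 0 calls under its 13 alternatives; upper-quartile scaling put its median at -0.12, against -0.06. Without each mouse in turn, the difference in the share of the 100 most abundant probes ran from 0.195 to 0.951 points and that in probes detected from -270 to 30.5. With the filter used, depth left 2.33% of probes for the test, and the cortex rests on 3 mice and 5 segments of a single plate.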
